A study of Homo sapiens with 16 samples.

Results

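What gemcitabine did in MiaPaCa2 cells that were also given genistein was read from the comparison of the MiaPaCa2 co-treatment libraries with the MiaPaCa2 genistein libraries, gene by gene. These are 4 of the 16 RNA-seq libraries of the study, 2 in each group. MiaPaCa2 is an established human pancreatic carcinoma line. The co-treatment cells had received 50 μM genistein and 40 nM gemcitabine, the genistein cells 50 μM genistein alone, and every library was labelled 24 hours. The other MiaPaCa2 groups were 40 nM gemcitabine alone and a control without either drug, again with 2 libraries each. The same 4 treatments were given to a further pancreatic line, PANC1. All cells were grown in DMEM with serum, and poly-A RNA was sequenced. Each line is a single cell line. The methods of the study call the 2 libraries of a group biological replicates, while the labels do not name separate cultures, and p-values measure only the spread between these libraries.

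Gemcitabine is a deoxycytidine analogue. It enters cells through nucleoside transporters, is phosphorylated by deoxycytidine kinase, and then ends DNA chains and blocks ribonucleotide reductase, so that forks stall and the replication checkpoint holds cells in S phase. Genistein is a soy isoflavone that binds oestrogen receptors and the membrane receptor GPER1 and inhibits several tyrosine kinases. The comparison asks what the nucleoside analogue adds when the isoflavone is already present.

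The genistein libraries held 13101557 and 22254419 reads counted on genes and the co-treatment libraries 13905360 and 15870195, and 16064 genes passed the low-count filter. All 5 markers of the PANC1 line, all of the acinar, endocrine and fibroblast markers, 3 of 4 leukocyte markers and 2 of 3 endothelial markers were at 3 counts or fewer in each of the 4 libraries, while the 5 genes that mark MiaPaCa2 summed to FPKM (fragments scaled to transcript length and library size) of 1993 and 2191 in genistein and 1171 and 1026 in co-treatment. The markers of both lines were taken from earlier results of these data, so their levels are no independent check of line identity. The remaining leukocyte marker, CD14, had mean FPKM of 1.48 and 2.84, and the remaining endothelial marker, CDH5, of 0.515 and 0.409. Counts also depended on the GC content of exons, to a degree that varied by library. The slope, in log2 units per 10 percentage points of GC, was -0.003 and -0.16 in genistein and 0.047 and 0.295 in co-treatment. This slope moved with the comparison, so the number of genes called in a list is also given after the counts had been corrected for GC content in each library.

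Gemcitabine on top of genistein moved the RNA of 5068 of the 16064 genes tested (31.5%) past the thresholds of the study. A gene passed when its adjusted p in limma-voom did not exceed 0.05, its change reached 0.4 log2 units either way, and its FPKM in co-treatment averaged more than 1. Of these, 2668 (16.6% of those tested) were higher and 2400 (14.9%) lower. The median change was 0.85 among genes that rose and -0.63 among genes that fell, and 1059 genes (6.59%) rose by 1 log2 unit or more against 268 (1.67%) that fell as far. At 2 log2 units these were 200 (1.25%) and 6 (0.0374%). The level criterion applied to co-treatment alone, so a gene that ended at a mean FPKM of 1 or less was not counted as lower. With FPKM above 1 in either group the calls were 2670 higher and 2463 lower, and without an FPKM criterion 3013 and 2513. For 99.4% of the called genes the libraries of both groups did not overlap, against 67.5% of all genes tested. The balance of directions moved with the scaling: 52.6% of the calls were higher here, 39.7% after correction for GC content and 67.3% when libraries were scaled by their size alone. Those scalings moved the median of all genes from -0.01 to -0.10 and 0.10.

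The genes with the smallest adjusted p among those that rose were CDKN1A, HAS3, C17orf103, NPTX1 and GFPT2. CDKN1A (chr6:36644237-36655114 on GRCh37) encodes p21, the inhibitor of cyclin-dependent kinases. Its level was 96.9 and 103.5 CPM (read counts scaled to library size) in co-treatment and 18.5 and 15.7 in genistein, and it rose by 2.57 ± 0.11 log2 units (SE, adjusted p = 2.5e-07). NPTX1, a secreted pentraxin first known from neurons, was at 43 and 43.1 CPM against 6.6 and 6.22. HAS3, a hyaluronan synthase of the plasma membrane, was at 53 and 50.8 CPM against 9.1 and 9.28, and GFPT2, an enzyme of the hexosamine pathway that feeds hyaluronan, at 154 and 155 against 49 and 45.3. C17orf103 was at 75.8 and 82.3 CPM against 18.6 and 18.9. In each of these genes every co-treatment library stood far above both genistein libraries, and the changes of the last 4 were 2.75 ± 0.14 for NPTX1, 2.49 ± 0.12 for HAS3, 1.72 ± 0.09 for GFPT2 and 2.07 ± 0.11 for C17orf103, each with an adjusted p of 3.1e-07.

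Most of the largest rises belonged to genes that were close to silent with genistein alone. FN1, which encodes fibronectin of the extracellular matrix, had 10.4 and 10 CPM in co-treatment against 1.05 and 0.66 (3.63 ± 0.28, adjusted p = 2.5e-06). DLL4, a Notch ligand, had 5.58 and 6.31 CPM against 0.644 and 0.236 (3.95 ± 0.42), HTR1D, a serotonin receptor, 5.58 and 6.37 against 0.161 and 0.613 (3.93 ± 0.47), and RASD1, a small GTPase, 6.06 and 7.31 against 0.564 and 0.377 (3.82 ± 0.42). DACT1, an antagonist of Wnt signalling, reached 3.99 and 4.31 CPM from 0.0805 and 0.377 (4.11 ± 0.61). With so few reads in genistein the size of the changes of DACT1, HTR1D and DLL4 rested on single libraries. That of DACT1 was 3.39 without genistein replicate 1 and 5.12 without genistein replicate 2, and that of HTR1D 3.24 and 4.90. The change of DLL4 was 3.13 without genistein replicate 2. FN1, DLL4, HTR1D, RASD1 and DACT1 left the range of the genistein libraries but stayed at low levels. In 3 further genes the genistein libraries held 3 counts or fewer, so the ratio of the summed counts is given with its exact 95% counting interval. KIAA1199, which binds hyaluronan, had 46 and 54 counts against 0 and 1, a ratio of 110.2 (19.3 to 4395.9). LRRC32, which tethers latent TGF-beta, had 49 and 51 counts against 3 and 3 (ratio 18.4, 8.15 to 51.2), and the transcript AC009014.3 25 and 37 against 1 and 2 (22.8, 7.44 to 113.4). In the other genes of this rank the call or the size of the change turned on single libraries. MAGED4, which shares its sequence with a near-identical neighbouring copy, had 2.07 and 2 CPM against 1.37 and 0, and its change of 3.97 was 0.55 (adjusted p = 0.475) without genistein replicate 2 and 6.45 without genistein replicate 1. Its deposited FPKM averaged 26.2 against 17.2, so it was not close to silent on that scale. FBXO32, a ubiquitin ligase of muscle wasting, had 1.72 and 2.12 CPM against 0 and 0.377 (3.69 ± 0.73), with 2.29 without genistein replicate 1 and 5.60 without genistein replicate 2.

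Among the genes that fell, the smallest adjusted p belonged to TNS3, LMNB1, SRSF1, CD44 and DPYD. LMNB1 encodes lamin B1 of the nuclear lamina. It had 83.2 and 71.2 CPM in co-treatment against 229 and 248 (-1.64 ± 0.09, adjusted p = 5.1e-07). TNS3, a focal adhesion protein, had 108.4 and 105.3 CPM against 322 and 312 (-1.57 ± 0.08). SRSF1, a splicing factor, had 142 and 128 CPM against 343 and 369 (-1.40 ± 0.08), and 32.7% of its exons overlap another gene of the same strand. CD44, the receptor for hyaluronan, had 782 and 722 CPM against 1648 and 1663 (-1.14 ± 0.07), and DPYD, which degrades pyrimidines, 58.2 and 53 against 154 and 162 (-1.51 ± 0.09). All 5 were lower in both co-treatment libraries, and unlike the genes with the largest rises they were abundant to begin with.

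STAG1, a cohesin subunit, had the largest fall among genes well above the counting floor, with 12.7 and 7 CPM against 37.4 and 50.4 (-2.23 ± 0.22, adjusted p = 1.3e-05). Genes of the opposite strand overlap 21.2% of its exons. LTBP2, a matrix protein related to the binders of latent TGF-beta, had 15.1 and 15.5 CPM against 51 and 53.1 (-1.77 ± 0.12), KRT19, a keratin of ductal epithelium, 51 and 66.6 against 209 and 177 (-1.71 ± 0.13), and KIAA0020 6.61 and 5.5 against 17.3 and 23.2 (-1.76 ± 0.19). SETSIP, a retrocopy of SET, had 1.03 and 1.81 CPM against 3.95 and 4.67 (-1.63 ± 0.30). CBWD6 belongs to a family of near-identical copies, and its 1 and 3 counts against 19 and 60 (ratio of genistein to co-treatment 17.9, 6.73 to 67.4) are uncertain because reads with several alignments had been removed. SERPINA3, an acute-phase protease inhibitor, had 2 and 3 counts against 10 and 17 (ratio 4.9, 1.86 to 16.3), and the small nucleolar RNA SNORD78, which lies within a host gene, 2 and 1 against 8 and 15 (6.96, 2.1 to 36.2). Their adjusted p was 0.0118 and 0.0042 with all libraries. Without co-treatment replicate 1 or 2 that of SERPINA3 was 0.0532 and 0.0565, and without co-treatment replicate 2 that of SNORD78 was 0.0555. The deposited FPKM of these genes differed far less, with means of 8 against 9.86 for CBWD6 and 81.3 against 89.6 for SERPINA3. By limma-trend on log2(FPKM + 1) the changes of CBWD6, SERPINA3 and SNORD78 were -0.27, -0.14 and -0.05, and none passed the threshold. SNORA73B, another small nucleolar RNA, had 0.827 and 0.375 CPM against 1.85 and 1.93, and its change of -1.72 was -1.14 (adjusted p = 0.111) without co-treatment replicate 2.

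**Figure D1:**
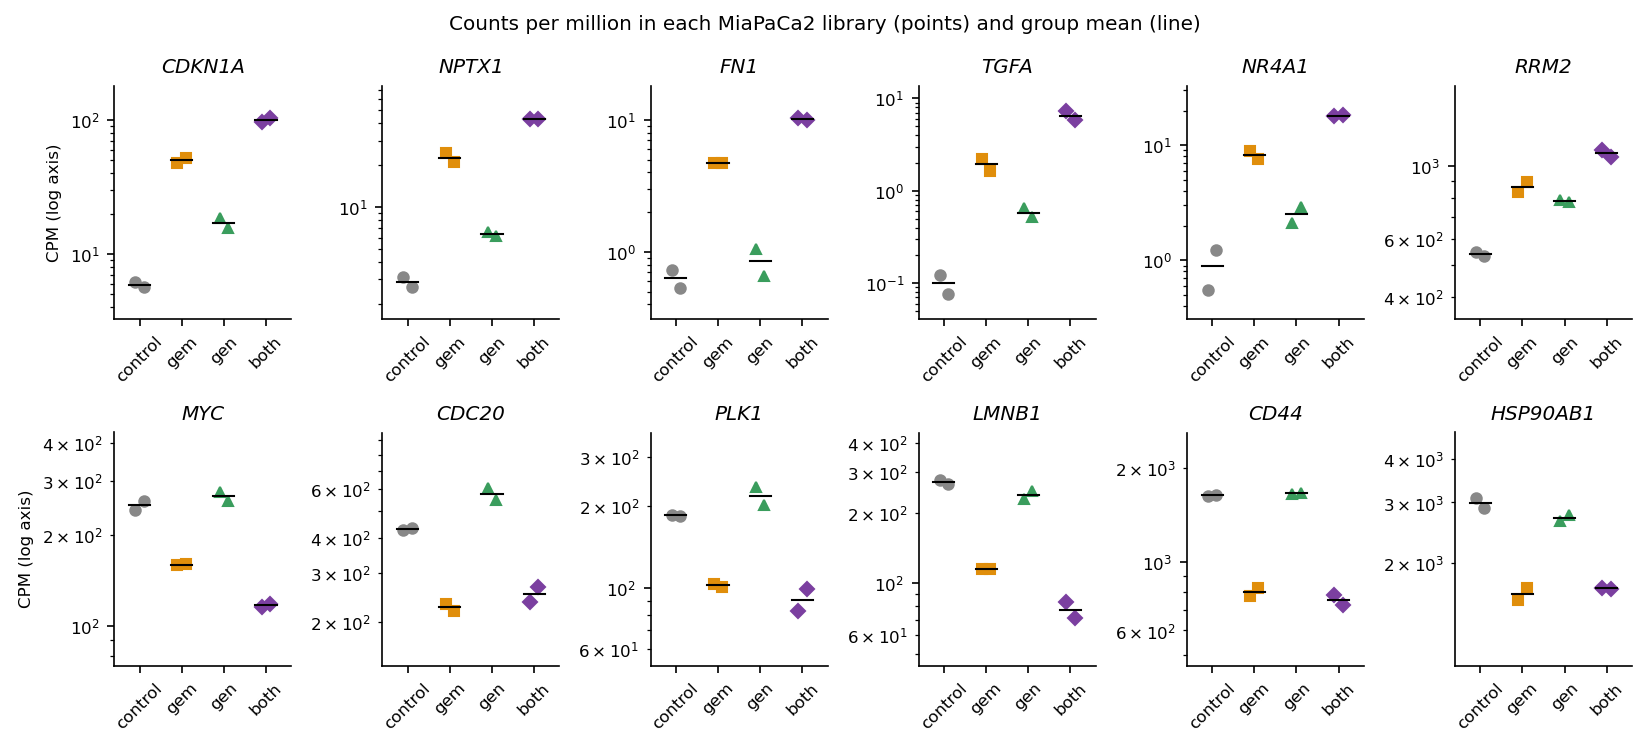
CPM (log axis) of 12 genes in each of the 8 MiaPaCa2 libraries, with points for libraries, lines for group means and the groups control, gemcitabine (gem), genistein (gen) and co-treatment (both). In the first 6 genes both co-treatment libraries stood above both genistein libraries (CDKN1A 96.9 and 103.5 against 18.5 and 15.7), and in the last 6 they stood below (LMNB1 83.2 and 71.2 against 229 and 248).

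Gene lists were compared with the shares of all genes tested, 16.6% higher and 14.9% lower. After correction for GC content those shares were 13.5% and 20.5%. The lists called lower in a share well above that of all genes included those of the cytosolic heat shock genes, mitotic kinesins, condensin and cohesin, ERK feedback and mitotic entry and exit. Lists with the opposite tilt included those of the AP-1 and early response genes, G1 to S regulators and p53 target genes. Polyadenylated histone genes had 3 of 17 higher and 2 lower (2 and 5 after GC correction). The strand setting of the counting is not given in the sources used here, so counts of a gene whose exons overlap a gene of the opposite strand are uncertain. Of the genes named below this concerns BORA (37% of exon bases), VIM (24.6%), E2F5 (18.8%), EME1 (16.4%), IDI1 (15%), HSPA8 (11.4%), SLC29A2 (10.3%) and those where it is given.

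**Figure D2:**
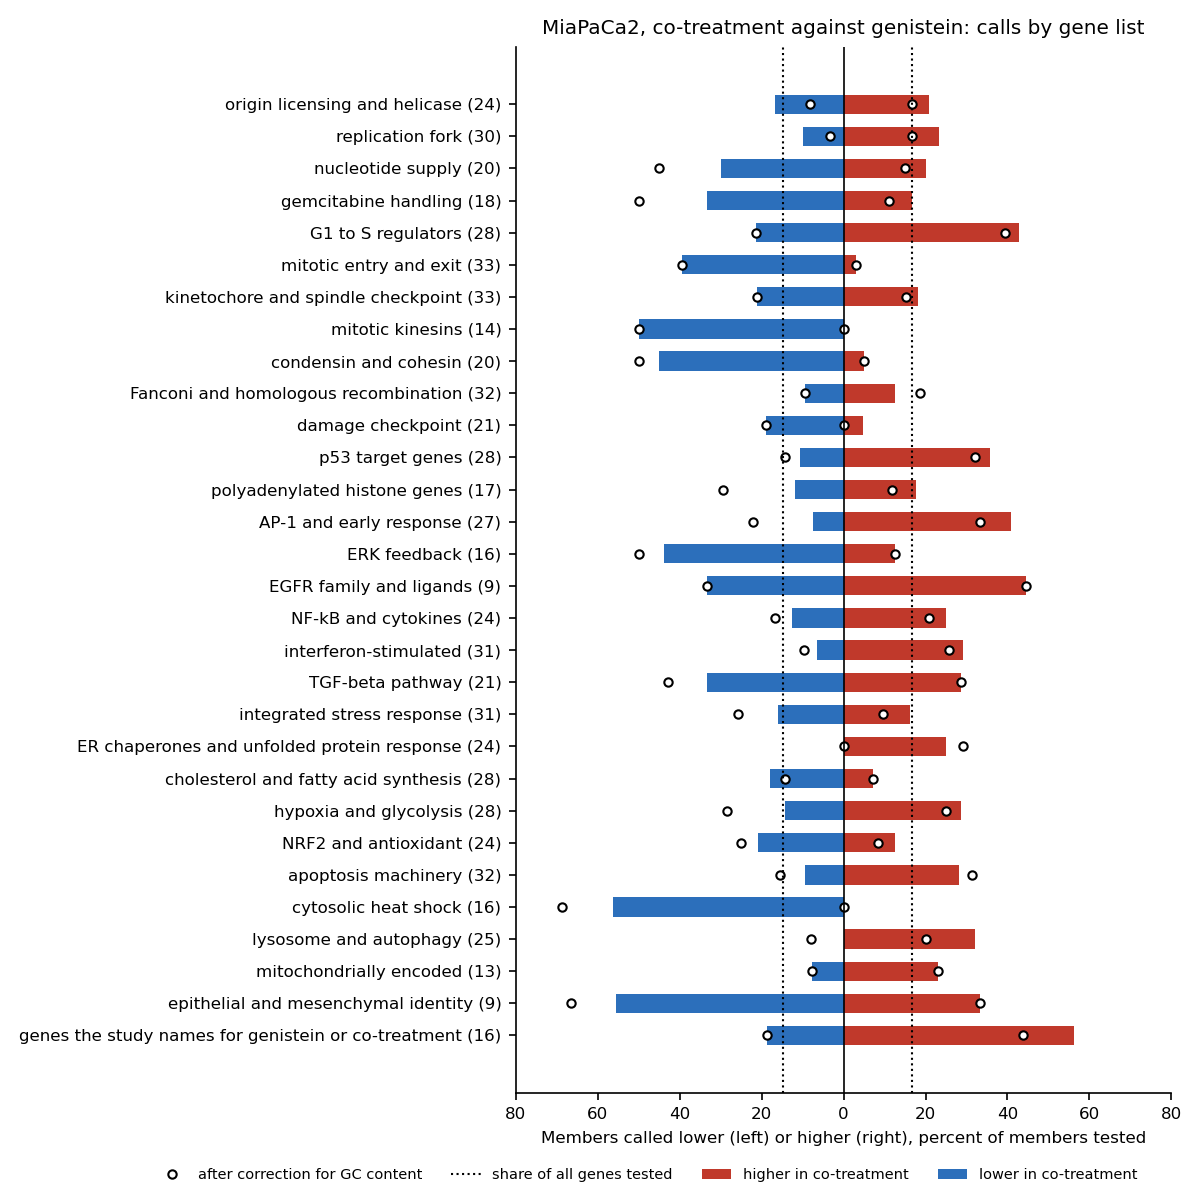
Percent of the tested members of 30 gene lists called higher (red, right) or lower (blue, left) in MiaPaCa2 co-treatment against genistein, with the number tested in brackets, open circles for the share after correction for GC content and dotted lines for the shares of all genes tested (16.6% and 14.9%). No cytosolic heat shock gene or mitotic kinesin was called higher, and no lysosome or ER chaperone gene was called lower before the correction.

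Of 22 genes that carry, activate or degrade gemcitabine or belong to its target, 18 were tested, 3 rose and 6 fell (2 and 9 after GC correction), with a median change of -0.16. The transporter genes SLC28A1, SLC28A2 and SLC28A3 and the deaminase gene CDA were too low to be tested. SLC29A1, the main transporter, had 194 and 200 CPM in co-treatment against 218 and 209, a difference of -0.11 (adjusted p = 0.26) that was -0.41 (adjusted p = 0.00029) after GC correction. SLC29A2, a second transporter, fell (-0.75 ± 0.15, adjusted p = 0.0017). DCK, the kinase that makes the monophosphate, had 28 and 24.2 CPM against 18.8 and 16.5 and rose by 0.58 ± 0.13 (adjusted p = 0.00326), with 0.47 (adjusted p = 0.0598) without genistein replicate 2. Its deposited FPKM went the other way, with means of 16.6 against 26.5, and limma-trend on log2(FPKM + 1) gave -0.07 (adjusted p = 0.962). CMPK1, the next kinase, fell from 95.9 and 110.7 CPM to 73.3 and 56.9 (-0.69 ± 0.12, adjusted p = 0.00073).

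RRM1 and RRM2, the subunits of ribonucleotide reductase, rose by 0.40 ± 0.10 and 0.48 ± 0.07. RRM2 had 1118 and 1061 CPM in co-treatment against 787 and 774. The p53-regulated subunit gene RRM2B differed by -0.11 ± 0.15. The exporter gene ABCC4 fell from 38.4 and 40.7 CPM to 21.4 and 19.4 (-0.96 ± 0.12, adjusted p = 6.8e-05). The phosphatase genes NT5C3A and NT5C fell by 0.77 and 0.46, the latter with an adjusted p of 0.0258 that was between 0.0554 and 0.0921 with any 1 of the 4 libraries left out (0.0745, 0.0554, 0.0921 and 0.0631). The gene listed as NME1-NME2 had 1.31 and 1.56 CPM against 3.38 and 2.78 (-1.05 ± 0.26), and limma-trend on log2(FPKM + 1) gave 0.06. It is uncertain, since its identifier now belongs to NME2 and its exons overlap a read-through gene. The values of the other members were -0.11 for TK2, -0.33 for DCTD, -0.34 for NME1, -0.21 for NT5C2, 0.14 for ABCC5, 0.27 for ABCC10 and 0.24 for SAMHD1, none of which met both the p and the fold criterion. The adjusted p of DCTD was 0.0114 and 0.0992 without genistein replicate 2, that of NME1 0.00813 and 0.0537 without genistein replicate 1, that of SAMHD1 0.075 and 0.00485 (difference 0.40) without co-treatment replicate 2, and that of NT5C2 0.115 and 0.0325 without co-treatment replicate 1.

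Other enzymes that supply nucleotides went both ways, with 4 of 20 higher and 6 lower (3 and 9 after GC correction). TK1, the thymidine kinase of S phase, rose from 335 and 276 CPM to 477 and 625 (0.85 ± 0.12). DHODH, which makes pyrimidines anew, fell from 14.7 and 14.8 CPM to 6.61 and 6.94 (-1.11 ± 0.15, adjusted p = 9.6e-05), and ATIC of purine synthesis fell by 0.60 ± 0.08.

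Of 24 origin licensing and helicase genes 5 rose and 4 fell, and of 30 fork genes 7 rose and 3 fell (4 and 2, and 5 and 1, after GC correction). Scaled by library size alone or fitted by limma-trend on log2(FPKM + 1), they were 8 and 0, and 11 and 1. CDT1, which loads the helicase at origins, had 98.6 and 131 CPM against 68.4 and 48 (1.02 ± 0.17, adjusted p = 0.00046) and 0.47 after GC correction. CDC6 and ORC6, its partners at origins, rose by 0.58 ± 0.08 and 0.57 ± 0.09. FEN1 and LIG1, which join Okazaki fragments, rose by 0.65 ± 0.08 and 0.75 ± 0.12, and TOP1, the topoisomerase that relieves twist ahead of the fork, fell by 0.60 ± 0.10.

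Among regulators of the passage from G1 to S, 18 of 28 moved, 12 higher and 6 lower (11 and 6 after GC correction). Beside CDKN1A the inhibitor gene CDKN1C rose from 0.805 and 1.04 CPM to 6.96 and 8.25 (2.98 ± 0.30, adjusted p = 1.3e-05). CCNE2, which encodes a cyclin of S phase entry, rose from 4.27 and 7.31 CPM to 26.2 and 15.5 (1.77 ± 0.27), although genes of the opposite strand overlap 37.1% of its exons. MYC, the growth-promoting transcription factor, fell from 277 and 259 CPM to 116.1 and 119 (-1.19 ± 0.08, adjusted p = 1.1e-06), and the repressor genes E2F5 and RBL1 fell by 1.13 ± 0.18 and 1.12 ± 0.13. Genes for inhibitors and for an S phase cyclin were thus among the rises, and MYC among the falls.

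Mitotic genes leaned downward. In the list of mitotic entry and exit, 13 of 33 fell and 1 rose (13 and 1 after GC correction), with a median of -0.22 against -0.01 for all genes. PLK1, the polo kinase, had 82.2 and 99.4 CPM in co-treatment against 234 and 200 (-1.25 ± 0.11, adjusted p = 4.2e-06), and genes of the opposite strand overlap 12.8% of its exons. CDC20, which activates the anaphase-promoting complex, had 236 and 267 CPM against 609 and 550 (-1.20 ± 0.08, adjusted p = 1.2e-06). BORA, which helps Aurora A activate PLK1, fell by 0.91 ± 0.17, and FAM64A, a regulator of anaphase, was the gene that rose (0.57 ± 0.08). CCNB1, the cyclin of mitotic entry, chosen after its values were seen, had 400 and 393 CPM against 667 and 642 (-0.72 ± 0.08). Its partner kinase gene CDK1 was at 86.4 and 61.6 CPM against 52.6 and 75.7, so its libraries overlapped (0.18 ± 0.17, adjusted p = 0.435), with 0.48 (adjusted p = 0.00064) after GC correction and 0.45 (adjusted p = 0.0403) without co-treatment replicate 2.

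Kinesins and the genes that shape chromosomes leaned the same way. All 7 called kinesins of 14 fell, among them KIF23 (76.3 and 58.7 CPM against 109.4 and 106.2, -0.69 ± 0.12) and KIF20A, chosen after its values were seen (312 and 285 against 423 and 441, -0.54 ± 0.08), both of which act in cytokinesis. The number that fell was 7 after GC correction, 3 without co-treatment replicate 2, 3 without genistein replicate 2, 2 in a fit of all 16 libraries and 2 by limma-trend on log2(FPKM + 1). KIF14 fell by 0.92 ± 0.23, with -0.67 (adjusted p = 0.0623) and -0.49 (adjusted p = 0.124) without those libraries. Of 20 condensin and cohesin genes 9 fell and 1 rose (10 and 1 after GC correction), 5 without co-treatment replicate 2. Beside STAG1 these were led by NIPBL, the cohesin loader (23 and 11.1 CPM against 29.6 and 44.5, -1.23 ± 0.26, and -0.67 without co-treatment replicate 2), and PDS5B, which keeps cohesin on chromatin (24.1 and 18.1 CPM against 42.4 and 52.9, -1.20 ± 0.16). The kinetochore list was split, with 6 of 33 higher and 7 lower, 5 and 7 after GC correction, 7 and 3 when libraries were scaled by size alone, and 7 and 4 without co-treatment replicate 2. The centromere gene CENPA fell from 57 and 58.3 CPM to 34.2 and 33.6 (-0.77 ± 0.10) and CENPF from 55.6 and 93 to 36.6 and 31.5 (-1.12 ± 0.20, and -0.71 without genistein replicate 2), while DSN1 and ZWINT of the outer kinetochore rose by 0.84 ± 0.10 and 0.74 ± 0.08.

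**Figure D3:**
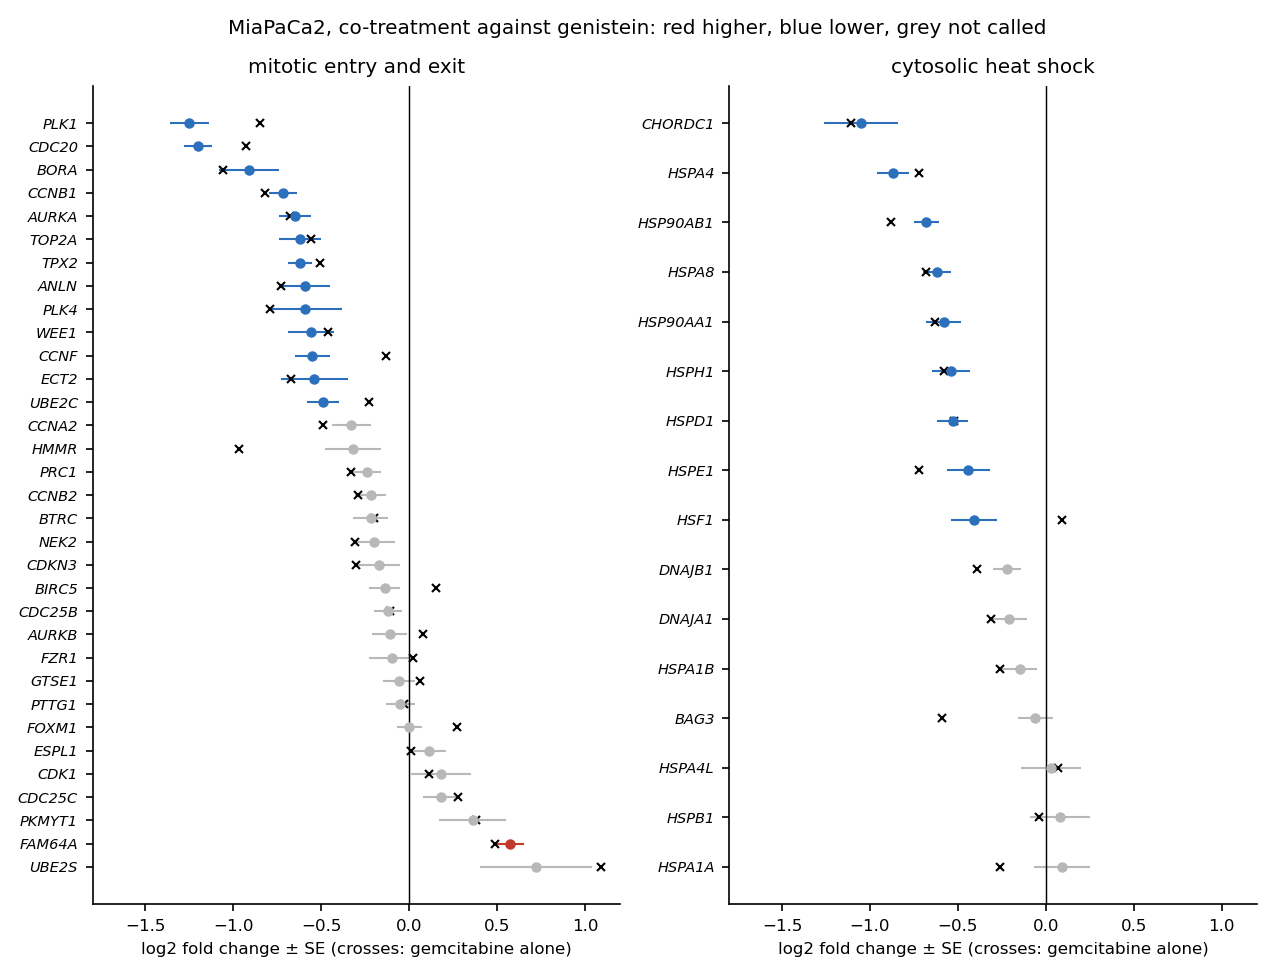
Log2 fold changes with standard errors of the 33 tested genes of mitotic entry and exit (left) and the 16 of the cytosolic heat shock list (right) in MiaPaCa2 co-treatment against genistein, red for higher, blue for lower and grey for not called, with crosses for gemcitabine alone against control. PLK1 (-1.25) and CDC20 (-1.20) stood lowest in the left panel, CHORDC1 (-1.05) lowest in the right panel, and most crosses lay on the same side of 0 as their points.

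Many mitotic genes are known to be repressed through a cell cycle homology region, CHR, written TTTGAA, by the DREAM complex, often with a CCAAT box nearby for NF-Y. The promoter stretches of 4 that fell are shown because TTTGAA can be read near the start in each, with CCAAT on either strand beside it in CDC20, PLK1 and KIF23. The CCAAT boxes of CENPA lie further from its start, outside the stretch shown. They run from 100 bases to 1 base before the start of the gene in RefSeq on GRCh38.p14, 5′ to 3′ on the gene's strand, with TTTGAA and CCAAT on either strand in capitals. The stretches are chr1:43358881-43358980 (+) for CDC20, chr16:23678789-23678888 (+) for PLK1, chr2:26785956-26786055 (+) for CENPA and chr15:69414249-69414348 (+) for KIF23.
CDC20: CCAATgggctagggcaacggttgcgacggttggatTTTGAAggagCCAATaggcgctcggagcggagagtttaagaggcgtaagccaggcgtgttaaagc
PLK1: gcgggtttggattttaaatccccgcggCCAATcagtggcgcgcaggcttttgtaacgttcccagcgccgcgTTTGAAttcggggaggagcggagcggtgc
CENPA: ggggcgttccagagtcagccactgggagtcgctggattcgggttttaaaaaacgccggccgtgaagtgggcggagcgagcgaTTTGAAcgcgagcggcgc
KIF23: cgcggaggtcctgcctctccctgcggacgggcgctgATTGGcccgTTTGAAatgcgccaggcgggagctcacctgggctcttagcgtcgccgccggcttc

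Over the 4 mitotic lists together (entry and exit, kinetochore, kinesins, condensin and cohesin), 36 genes fell and 30 of them had a promoter window of 250 bases before to 50 after the start. TTTGAA was in 20 of the 30 (66.7%) and CCAAT in 21 (70%). Among list members that were not called, TTTGAA was in 25 of 47 windows (53.2%) and CCAAT in 30 (63.8%). Over the 10578 tested genes with a window the shares were 9.26% and 36.3%, and over all 27305 windows 15.4% and 35.7%. The letters were thus about as common in mitotic genes that were not called as in those that fell.

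The target genes of p53 rose more often than all genes, with 10 of 28 higher and 3 lower (9 and 4 after GC correction). This list holds genes that other pathways also drive. After CDKN1A the largest rises were those of PLK3, a polo-like kinase of the stress response (20.5 and 26.4 CPM against 10.9 and 10.1, 1.16 ± 0.17), and FDXR, a mitochondrial reductase (88.8 and 122 against 51.5 and 47.9, 1.07 ± 0.14). PLK2 fell from 1161 and 1260 CPM to 686 and 628 (-0.88 ± 0.08) and AEN, a nuclease, from 66.7 and 60.9 to 37.7 and 40.6 (-0.70 ± 0.10). MDM2 and BAX, textbook targets of p53, differed by -0.20 ± 0.14 and -0.24 ± 0.11 with adjusted p of 0.275 and 0.0827. The BAX value was -0.64 (adjusted p = 6.6e-06) after GC correction, and without co-treatment replicate 1 that of MDM2 was -0.39 (adjusted p = 0.0415) and without co-treatment replicate 2 that of BAX was -0.37 (adjusted p = 0.0125).

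In the damage checkpoint list 1 of 21 rose and 4 fell (0 and 4 after GC correction), and 1 fell without co-treatment replicate 2 or without genistein replicate 2. MDC1, which binds marked chromatin at breaks, fell by 0.66 ± 0.09, and RAD9A, a part of the checkpoint clamp, rose from 10.5 and 10.5 CPM to 18.5 and 18.7 (0.82 ± 0.14, and 0.39 after GC correction). CHEK1, the kinase of the replication checkpoint, had 30.4 and 27.2 CPM against 38.2 and 37.1, a difference of -0.39 that missed the fold criterion and whose adjusted p of 0.0124 was 0.0917 without co-treatment replicate 2, 0.0534 without genistein replicate 1 and 0.0593 without genistein replicate 2. Of 32 Fanconi and homologous recombination genes 4 rose (12.5%) and 3 fell (9.38%), and 6 and 3 after GC correction. Before the correction both shares were below those of all genes tested (16.6% and 14.9%). Among the 4 that rose were FANCL of the Fanconi ubiquitin ligase (0.62 ± 0.12), the nuclease subunit gene EME1 (0.60 ± 0.10) and the nuclease gene EXO1 (0.53 ± 0.10). The 3 that fell are not named here.

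In the apoptosis list 9 of 32 rose and 3 fell (10 and 5 after GC correction). The genes with the largest rises all encode BH3-only killers of the BCL2 family. BIK had 8.61 and 11.1 CPM in co-treatment against 1.61 and 2.59 (2.17 ± 0.25, adjusted p = 3.4e-05), BMF 17.6 and 16.4 against 7.97 and 6.41 (1.27 ± 0.15) and PMAIP1 16.2 and 15.7 against 9.58 and 8.06 (0.88 ± 0.14). BCL2L1, which encodes the survival protein BCL-xL, fell from 131 and 119 CPM to 86.6 and 96.5 (-0.44 ± 0.09), with genes of the opposite strand over 41.3% of its exons.

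Early response genes lie downstream of growth factor and stress kinases. In the AP-1 list 11 of 27 were higher and 2 lower (9 and 6 after GC correction), with a median of 0.37 and of 0.17 after the correction. FOSB, a partner of JUN, had 11 and 12.6 CPM against 1.13 and 1.84 (2.93 ± 0.28, adjusted p = 8.4e-06), the nuclear receptor gene NR4A1 17.8 and 18.3 against 2.09 and 2.92 (2.80 ± 0.23), and EGR3, a zinc finger factor, 3.51 and 4.06 against 0.644 and 0.801 (2.32 ± 0.35). Genes of the opposite strand overlap 10.3% of the NR4A1 exons. KLF6 fell from 145 and 154 CPM to 70.8 and 57.6 (-1.23 ± 0.10) and FOSL1, which encodes the FOS relative FRA1, from 72.7 and 70.1 to 40.5 and 46.8 (-0.71 ± 0.10). JUN itself was at 59.5 and 70.1 CPM against 63.1 and 56.1 (0.13 ± 0.11, adjusted p = 0.394).

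Of the 16 genes of the ERK feedback list, 2 rose and 7 fell (2 and 8 after GC correction). The list holds genes that restrain ERK signalling together with other genes downstream of ERK, such as CCND1 and FOSL1. The phosphatase genes DUSP4 and DUSP5 rose by 2.31 ± 0.23 and 1.02 ± 0.11, DUSP4 from 1.37 and 1.51 CPM to 7.37 and 7.25. Sprouty genes, which restrain receptor tyrosine kinases, were among the falls. SPRY4 had 187 and 183 CPM against 413 and 415 (-1.16 ± 0.07, adjusted p = 7.7e-07), SPRY1 23.7 and 21.4 against 48.1 and 50.3 (-1.13 ± 0.11) and SPRY2 84.1 and 77.9 against 147 and 154 (-0.90 ± 0.09).

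The called ligands of the EGF receptor rose, with 1 exception. TGFA had 7.23 and 5.81 CPM in co-treatment against 0.644 and 0.518 (3.44 ± 0.34, adjusted p = 1.1e-05), HBEGF 44.3 and 47.4 against 10.8 and 10.4 (2.11 ± 0.14, adjusted p = 8.9e-07) and AREG 2.41 and 2.31 against 0.966 and 0.471 (1.86 ± 0.35, and 1.25 without genistein replicate 2). EREG fell from 223 and 229 CPM to 132 and 94.7 (-1.02 ± 0.12). The receptor gene EGFR fell by 0.45 ± 0.09 and its inhibitor ERRFI1 from 734 and 809 CPM to 357 and 308 (-1.22 ± 0.09). Of the 12 genes of this list 9 were tested, 4 rose and 3 fell, before and after GC correction.

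In the NF-kB and cytokine list 6 of 24 rose and 3 fell (5 and 4 after GC correction). The largest rises were those of TNFAIP3, an inhibitor of NF-kB signalling (8.06 and 10.1 CPM against 4.27 and 4.71, 1.0 ± 0.21), NFKBIE (0.92 ± 0.16) and NFKBIZ (0.92 ± 0.14). The chemokine gene CXCL1 fell from 131 and 126 CPM to 53.2 and 55.1 (-1.25 ± 0.10, adjusted p = 3.2e-06), the inhibitor gene NFKBIA from 150 and 143 to 82.2 and 92.7 (-0.74 ± 0.09) and LIF, an IL-6 family cytokine, by 0.61 ± 0.10. Interferon-stimulated genes went up more often than down, with 9 of 31 higher and 2 lower (8 and 3 after GC correction). OAS3 and OAS1, which sense double-stranded RNA, rose from 43.2 and 40 CPM to 123 and 121 (1.56 ± 0.10) and from 2.82 and 3.2 to 11.6 and 9.81 (1.80 ± 0.22), and IFI27 rose by 2.08 ± 0.56.

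Among 21 tested genes of the TGF-beta pathway 6 rose and 7 fell (6 and 9 after GC correction, and 6 and 3 by limma-trend on log2 FPKM). The ligand gene TGFB3 rose from 2.42 and 2.31 CPM to 9.16 and 9.31 (1.96 ± 0.20, adjusted p = 1.7e-05), the inhibitory SMAD7 from 0.886 and 1.08 to 3.51 and 2.69 (1.58 ± 0.30) and LTBP1, which anchors the latent ligand, from 7.41 and 8.34 to 20.3 and 18.9 (1.30 ± 0.16). On the other side stood LTBP2 and the coreceptor gene TGFBR3 (-0.76 ± 0.14).

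Of 16 tested heat shock genes 9 fell and none was called higher (11 and none after GC correction), with a median of -0.43, and 5 fell without co-treatment replicate 2. CHORDC1, an HSP90 cochaperone, had 8.95 and 6.44 CPM against 12.8 and 18.2 (-1.05 ± 0.21, adjusted p = 0.00155), HSPA4 of the HSP110 family 310 and 256 against 490 and 535 (-0.87 ± 0.09), and HSP90AB1, the constitutive HSP90, 1702 and 1683 against 2652 and 2764 (-0.68 ± 0.07, adjusted p = 1.2e-05). The inducible HSP70 genes HSPA1A and HSPA1B, near-identical copies of each other, differed by 0.09 ± 0.16 and -0.15 ± 0.10, the latter by -0.47 (adjusted p = 0.0013) after GC correction. Genes of the HSP90 and HSP70 families have processed copies elsewhere in the genome, so their counts lack the reads that aligned in several places.

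Of 24 genes for chaperones of the endoplasmic reticulum and the unfolded protein response 6 rose and none fell (7 and none after GC correction, 11 and none by library size alone), with a median of 0.26. CRELD2 rose from 43.1 and 36.1 CPM to 69.2 and 80.2 (0.93 ± 0.12), HERPUD1, which helps export misfolded proteins, from 54.7 and 50.1 to 89.3 and 90.8 (0.79 ± 0.09) and the secreted stress factor MANF from 57.7 and 56.3 to 94.5 and 100 (0.77 ± 0.10). HSPA5, which encodes the chaperone BiP and was chosen after its values were seen, rose from 693 and 713 CPM to 955 and 911 (0.41 ± 0.07, adjusted p = 0.00045). In the list of the integrated stress response 5 of 31 rose and 5 fell (3 and 8 after GC correction, 7 and 4 by library size alone). ATF4, its central factor, fell by 0.59 ± 0.08, and its target DDIT3 (CHOP) was at 19.8 and 16.5 against 17.3 and 18.3 (0.01 ± 0.13).

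The promoters of both chaperone classes are known for elements of their own. The ER stress element, a CCAAT box followed at a fixed distance by CCACG, was found in 2 of the 6 ER genes that rose, in 0.132% of the tested genes with a window and in 0.0806% of all windows. The heat shock element, 3 alternating inverted repeats of NGAAN, was in 2 of 8 windows of heat shock genes that fell, in 0.312% of tested genes and in 0.487% of all windows. Both were searched on either strand, and the 2 genes that hold each element are shown for the same 100 bases as above on GRCh38.p14, at chr9:125241344-125241443 (-) for HSPA5, chr22:49918534-49918633 (+) for CRELD2, chr11:90223050-90223149 (-) for CHORDC1 and chr11:123062137-123062236 (-) for HSPA8, with the element in capitals. HSPA8 has a further match outside the stretch shown, and the matches of CHORDC1 overlap. The elements were not counted in members of these lists that were not called. Whether they go with the rise or the fall was therefore not tested.
HSPA5: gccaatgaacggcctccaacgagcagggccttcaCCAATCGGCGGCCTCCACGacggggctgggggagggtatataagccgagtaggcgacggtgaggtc
CRELD2: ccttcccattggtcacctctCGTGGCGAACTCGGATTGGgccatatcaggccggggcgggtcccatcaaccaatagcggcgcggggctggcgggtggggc
CHORDC1: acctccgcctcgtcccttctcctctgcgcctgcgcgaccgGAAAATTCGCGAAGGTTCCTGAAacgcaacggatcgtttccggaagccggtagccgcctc
HSPA8: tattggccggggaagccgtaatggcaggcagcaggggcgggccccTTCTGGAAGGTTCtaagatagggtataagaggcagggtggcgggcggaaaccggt

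Metabolic lists were mixed. Of 28 hypoxia and glycolysis genes 8 rose and 4 fell (7 and 8 after GC correction). EGLN3, the oxygen-sensing prolyl hydroxylase, rose from 2.01 and 1.79 CPM to 10.5 and 13.1 (2.63 ± 0.26), NDRG1 from 25 and 23.6 to 80 and 86.4 (1.78 ± 0.10) and the peptide hormone gene ADM from 2.09 and 2.26 to 6.06 and 7.94 (1.65 ± 0.23), while HIF1A fell from 140 and 154 to 82.6 and 62.6 (-1.04 ± 0.12) and the glycolytic PKM and ENO1 by 0.63 ± 0.07 and 0.62 ± 0.07. Of 28 cholesterol and fatty acid genes 2 rose and 5 fell (2 and 4 after GC correction, 4 and 3 by library size alone), with IDI1 of isoprenoid synthesis higher (0.79 ± 0.11) and SCD, the desaturase (521 and 564 CPM to 318 and 302, -0.81 ± 0.08) and ACACA of fatty acid synthesis (-0.86 ± 0.08) lower. In the NRF2 list 3 of 24 rose and 5 fell (2 and 6 after GC correction, 5 and 4 by library size alone), led by TXNRD1, thioredoxin reductase (1260 and 1414 CPM to 649 and 569, -1.14 ± 0.08), and GCLM of glutathione synthesis (-0.94 ± 0.12). Lysosome and autophagy genes rose in 8 of 25 cases and fell in none, but 5 rose and 2 fell after GC correction. The autophagy kinase gene ULK1 (28.7 and 22.5 CPM to 52.2 and 66.6) rose by 1.24 ± 0.18 and by 0.72 after the correction.

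Of the 13 genes encoded by mitochondrial DNA, 3 rose and 1 fell with gemcitabine on top of genistein, also after GC correction, and none rose and 5 fell with gemcitabine alone. MT-CO1, a subunit of cytochrome oxidase, had 6859 and 6827 CPM in co-treatment and 4659 and 4977 in genistein (0.51 ± 0.08, adjusted p = 0.0005), against 5675 and 6871 with gemcitabine and 6167 and 6703 in control (-0.04). MT-ND5 rose by 0.44 ± 0.09. The difference between both responses missed the threshold for each of the 13 genes before GC correction and passed it for 3 after, MT-CO1 (adjusted p = 0.0417), MT-ND5 (0.0417) and MT-CYB (0.0372). Without genistein replicate 1 the number that rose was 1, and without genistein replicate 2 it was 6.

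Most markers of epithelial or mesenchymal state were silent: 12 of 21, CDH1, EPCAM and CDH2 among them, were too low to be tested. Of the other 9, 3 rose and 5 fell (3 and 6 after GC correction, 3 and 3 by library size alone). KRT19 fell together with VIM, the intermediate filament of mesenchymal cells (8471 and 8191 CPM to 4666 and 5082, -0.77 ± 0.06, adjusted p = 3e-06), while FN1 rose together with SNAI1 (1.24 ± 0.18) and SNAI2 (1.14 ± 0.24), repressors of epithelial genes. Members of each state were thus found among the falls.

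Among 18 genes that the study discusses for genistein or co-treatment, 16 were tested, 9 rose and 3 fell (7 and 3 after GC correction). They were chosen on these samples, so their directions are no independent evidence. GPER1, the membrane oestrogen receptor, had 3.1 and 5.44 CPM against 1.69 and 1.37 (1.46 ± 0.32, adjusted p = 0.00312). The nuclear receptor genes ESR1 and ESR2 were barely expressed: ESR1 was not tested, and ESR2 had 0.895 and 0.812 CPM against 0.161 and 0.236 and missed the level criterion (adjusted p = 0.0221, 0.0639 without genistein replicate 1 and 0.0837 without genistein replicate 2). VDR, the vitamin D receptor, rose from 8.37 and 8.29 CPM to 28.4 and 27.7 (1.75 ± 0.13), and its partner gene RXRA fell by 0.66 ± 0.11, as did SP1 (-0.88 ± 0.10). TGFB1 (1.3 ± 0.13), ITPR1, a calcium channel of the ER (0.94 ± 0.12), the initiator caspase gene CASP9 (0.85 ± 0.12), RELB (0.87 ± 0.18, and 0.52 without genistein replicate 2), NFKB2 (0.73 ± 0.10), NR4A1 (2.80 ± 0.23) and the nicotinic receptor gene CHRNA7 (1.18 ± 0.33) rose. The adjusted p of CHRNA7 was 0.0132, and 0.055 without co-treatment replicate 1 and 0.0574 without genistein replicate 2. MUC1 was at 3.51 and 4.37 CPM against 3.87 and 4.15 (-0.03), and AKT1 at 525 and 619 against 514 and 434 (0.28 ± 0.10), with adjusted p of 0.0354, of 0.157 without co-treatment replicate 2 and of 0.361 without genistein replicate 2, and with -0.19 after GC correction. TNF was too low to be tested.

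Genes that rose differed in build from genes that fell. The median exon GC content was 54.8% in genes that rose, 43.1% in genes that fell and 48% in all tested, and the median gene span was 20.3, 44.1 and 22.8 kb. Genes that rose started from a median FPKM of 4.68 with genistein alone and genes that fell from 22.1. The level criterion for calls applied to co-treatment alone, so it kept genes that ended at low levels out of the falls. Genes that started at low levels could still be called higher. How much of the gap in starting level came from this rule was not tested. Of 1232 long noncoding RNAs tested, 317 rose and 53 fell, where 16.6% of all genes tested rose and 14.9% fell. The same level criterion bears on these counts, and their balance without it was not tested. From the lowest to the highest quintile of GC content the share called higher went from 5.65% to 32.9% and the share called lower from 27.6% to 5.39%. After each library had been corrected for its GC trend these shares went from 12.2% to 14.9% and from 16.4% to 24.1%. By gene span, the share called lower went from 10.1% in the shortest quintile to 25.3% in the longest, and from 19.1% to 25% after the correction.

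**Figure D4:**
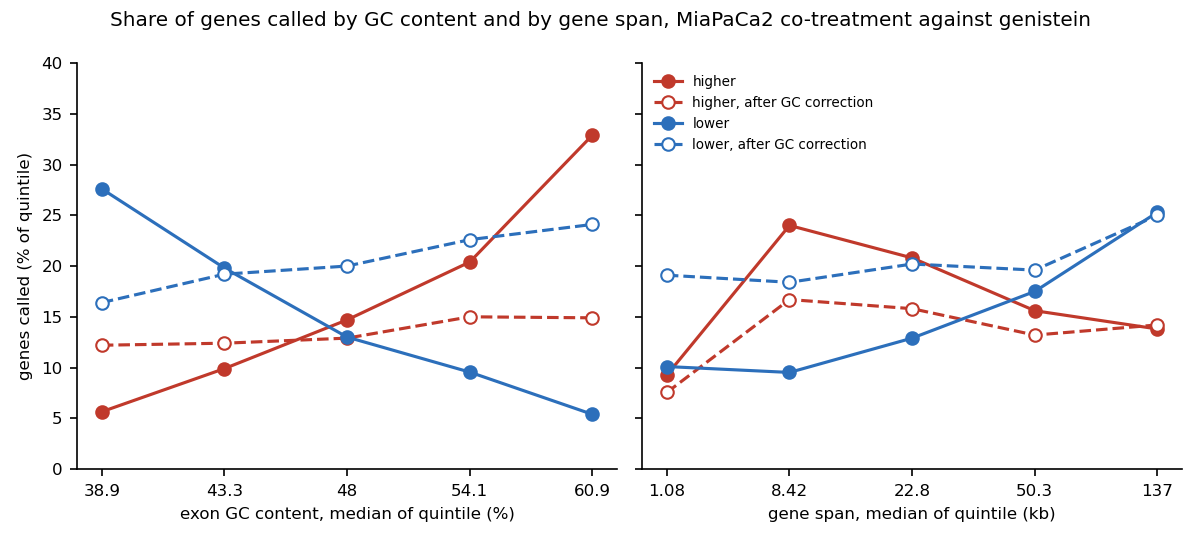
Percent of genes called higher (red) or lower (blue) in MiaPaCa2 co-treatment against genistein in quintiles of the genes by exon GC content (left) and by gene span (right), labelled by the median of each quintile, before (filled) and after (open, dashed) correction for GC content. The slopes with GC content (5.65% to 32.9% higher, 27.6% to 5.39% lower) became shallow after the correction (12.2% to 14.9% and 16.4% to 24.1%). This follows from the correction, which removes the GC trend of each library, and does not show where the trend came from. The longest genes still had the largest share called lower (25%).

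The response to gemcitabine with genistein was set beside the response without it, gemcitabine against control, which uses other libraries. Gemcitabine alone called 4747 genes (29.6%). Of the 5068 genes called with genistein present, 1858 were higher and 1580 lower in both, which is 67.8% of the calls with genistein and 72.4% of the calls without. Only 4 genes were called in opposite directions. Of the 1626 genes called with genistein present but not without it, 1528 had the same sign without it. Across all genes the log2 fold changes had a Pearson and a Spearman correlation of 0.79 each (Pearson 0.76 after GC correction), a description over genes that share libraries and the GC trend, and the median ratio of the changes with and without genistein was 1.04 for genes called in both.

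**Figure D5:**
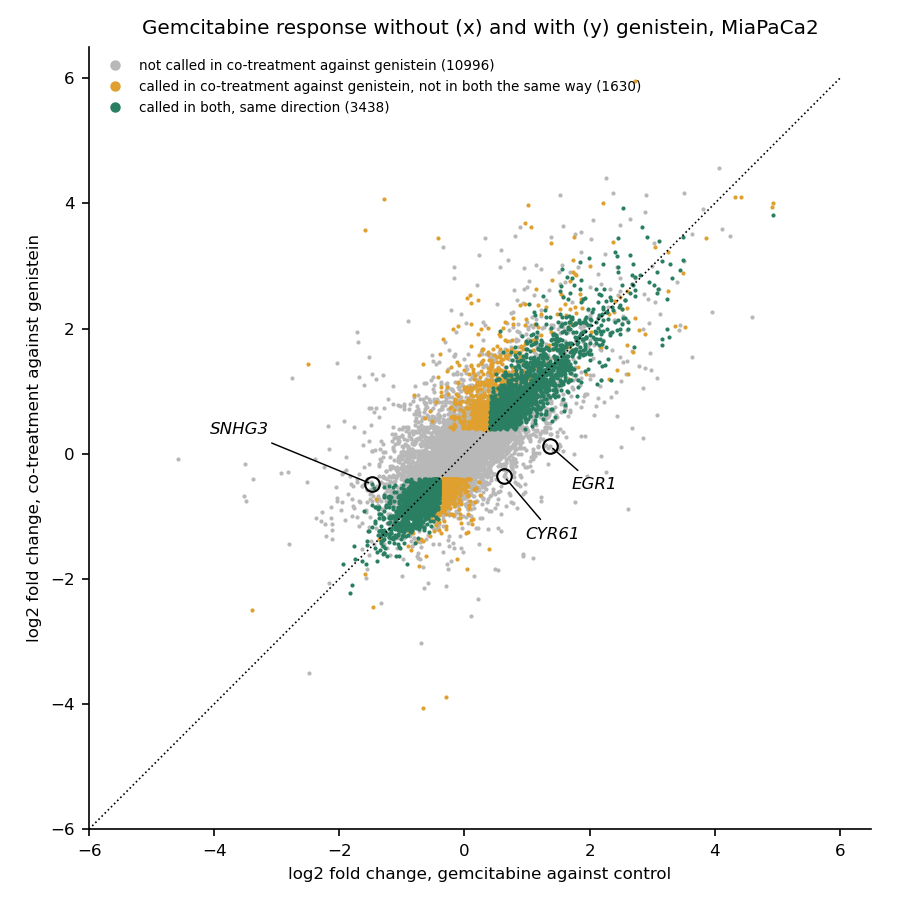
Log2 fold change of gemcitabine against control (x) and of co-treatment against genistein (y) for the genes tested in MiaPaCa2, green where a gene was called in both in the same direction (3438), orange where it was called with genistein but not in both the same way, and grey otherwise, with the line of equal change dotted and 1 gene outside the axes. Most points follow the line, and the 3 circled genes are among the 4 whose difference between both responses passed the test (EGR1 -1.24, CYR61 -1.0, SNHG3 0.99).

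Tested directly, the response differed with genistein present in 4 genes (0.0249% of 16064, adjusted p of at most 0.05 in limma-voom), where 1346 had an unadjusted p under 0.05 and the median standard error of the difference was 0.21. EGR1 (chr5:137801168-137804992), an early response transcription factor, was at 85.4 and 92.7 CPM in co-treatment and 83.2 and 80.3 in genistein, but at 82.5 and 75.1 with gemcitabine and 31.4 and 29.6 in control. Gemcitabine thus changed it by 0.13 ± 0.09 with genistein and 1.36 ± 0.11 without (difference -1.24 ± 0.14, adjusted p = 0.00987). CYR61 (chr1:86046444-86050272), a secreted matrix protein, had 112.5 and 117 CPM against 149 and 147 with genistein and 144 and 149 against 96.3 and 92.1 without (-0.36 and 0.63, difference -1.0 ± 0.12, adjusted p = 0.00987).

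SNHG3 (chr1:28832492-28837404), a host gene of small nucleolar RNAs, fell less with genistein (57.9 and 53.7 CPM against 76.3 and 79.7) than without (40.8 and 40.8 against 114.7 and 111.8), a difference of 0.99 ± 0.13 (adjusted p = 0.0255). SNORA73B lies within SNHG3. All 4 genes passed with the edgeR and DESeq2 tests and after GC correction, none passed with the replicate number as a block, and none passed when any gemcitabine or control library was left out. The fit with GC correction and the block together kept all 4.

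In the fit of all 16 libraries the same comparison called 2601 of 17863 genes in PANC1 and 4007 in MiaPaCa2. Of the 5068 MiaPaCa2 calls of the main fit, 1118 were called in PANC1 in the same direction and 121 in the opposite direction. That overlap sets calls from different fits side by side, since the main fit held the MiaPaCa2 libraries alone. The difference between lines, from the fit of all 16 libraries, passed for 1572 of 17863 genes (8.8%). CDKN1A differed by 0.41 in PANC1 (2.57 in MiaPaCa2, adjusted p of the difference 0.00011), TGFA by 0.39 (3.44, 0.00066) and MYC by 0.27 (-1.19, 0.00029), whereas for PLK1 (-1.30 in PANC1, 0.85), HBEGF (1.98, 0.668) and FOSB (3.05, 0.96) no difference between the lines was detected.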

How the data were processed

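Poly-A RNA of MiaPaCa2 and PANC1 cells was sequenced as single reads from stranded libraries. The authors aligned reads to GRCh37 with TopHat2 2.0.4, removed reads with several alignments with SAMtools and Picard 1.29, and deposited raw read counts per gene (HTSeq 0.6.1) and FPKM values (Cufflinks 2.1.1). Of 63677 gene identifiers, 16064 passed edgeR's filterByExpr (edgeR 4.0.16).

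Counts of the 8 MiaPaCa2 libraries were scaled by TMM and fitted with limma-voom (limma 3.58.1, R 4.3.3) with group means and Benjamini-Hochberg adjustment. Calls required an adjusted p no higher than 0.05, a change of 0.4 log2 units or more in either direction and FPKM averaging more than 1 in the treated group, whereas a difference between responses was called by its adjusted p alone. CPM values are TMM-scaled, and ± is the standard error. PANC1 values and the difference between lines came from a fit of all 16 libraries, in which 17863 genes were tested. Library totals, 13101557 to 22254419 counts in MiaPaCa2, set the counting precision, and counting intervals cover counting error only. For the GC correction a loess trend (span 0.3) of each library with exon GC content was removed for the 15757 genes with a GENCODE 44 lift-over value. The fit was checked on simulated counts that held no GC trend, so that check does not bear on the dependence on GC content.

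Named were the 10 largest rises and falls with libraries that do not overlap, the 5 smallest adjusted p in each direction, genes whose response differed with genistein, up to 3 called members of each list in each direction, and all members of the gemcitabine handling list and of the genes the study names. List members that lost the adjusted p without 1 library were passed over unless that value is given, and a few genes that meet these rules are not reported here. Members and lists were chosen with earlier results of these data known. Alternatives were edgeR's quasi-likelihood test, DESeq2 1.42.0, other scalings, filters and thresholds, a replicate block and leaving out each library. Same-numbered libraries did not deviate together (correlations of deviations -0.275 to 0.139), so the numbers were not taken as pairs.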

Additional observations from a re-analysis of the deposited data

Results flagged for a closer look

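In MiaPaCa2 the response to gemcitabine differed with genistein present, by the interaction term of limma-voom, in 4 genes, among them EGR1 (-1.24 log2 units), CYR61 (-1.0) and SNHG3 (0.99). CYR61 fell outside the rule for named genes and was chosen after its values were seen. Co-treatment against genistein differed between PANC1 and MiaPaCa2 in 1572 genes, 563 with a more positive and 1009 with a more negative change in PANC1. The cause of these differences was not tested.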

How the results depend on the processing

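The 5068 calls were 1327 when a change of 1 log2 unit was required, and between 3584 and 5658 when 1 library was left out, 3584 without genistein replicate 2 and 4062 without co-treatment replicate 2. They were 3514 by limma-trend on log2(FPKM + 1), where 69.8% were higher, and 4007 with all 16 libraries, where 60.2% were higher. With the replicate number as a block the calls were 4820. In a fit of the 4 libraries compared, chosen after seeing the data, same-numbered pairs gave 3446 calls and crossed pairs 5254. The 4 genes whose response differed with genistein were 34 by DESeq2, 91 after GC correction, 0 with the replicate block (1346 had an unadjusted p under 0.05 without it), 27 with GC correction and the replicate block, and 0 to 21 when 1 library was left out. By limma-trend on log2(FPKM + 1) DCK was at -0.07 and NME1-NME2 at 0.06, and AKT1 was at -0.19 after GC correction and at -0.19 with GC correction and the replicate block. With 2 libraries in a group and a median standard error of 0.15, small changes and genes of few reads are the least certain. The cause of each shift was not tested.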
